A study of Mus musculus with 48 samples.

Results

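AMPA and kainate receptors are ionotropic receptors for glutamate, and their 9 subunit genes in the mouse are Gria1, Gria2, Gria3 and Gria4 for AMPA receptors and Grik1, Grik2, Grik3, Grik4 and Grik5 for kainate receptors. All 9 were found by symbol among the 21558 genes of a deposited table of hypothalamus RNA sequencing. The table has 48 libraries, each a pool of tissue from 3 male C57BL/6 mice, in 8 series of 6. Late mice (3 months in the labels) were kept with hind limb unloading, a way to mimic weightlessness on the ground, or moving freely, each either at 85 dBA of noise and 0.9 atm (here "noise") or at 10 dBA and normal pressure (here "quiet"), which gives 4 late series. Early mice (2 months) were all kept quiet, in a pair of unloaded series and a pair of free-moving series whose labels do not tell them apart, here called a and b. The series' design text calls all mice 2 months old, against the 3 months in the labels of the late samples. Titles carry the numbers 1, 5, 9, 13, 17 and 21 with no unit, and each series has 1 library per number. No library stands for a single animal, and in whole tissue fewer cells of a type cannot be told apart from less RNA per cell.

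AMPA receptors are tetramers that carry most fast excitatory current in the brain. The Gria2 subunit makes the channel nearly impermeable to calcium once its transcript has been edited by the adenosine deaminase encoded by Adarb1. Among kainate subunits, Grik1, Grik2 and Grik3 encode the GluK1 to GluK3 subunits, which can form channels alone, while Grik4 and Grik5 encode high-affinity subunits that need one of those as a partner. In the hypothalamus glutamate acts on neurons that release hormones and on those that control feeding, arousal and the daily clock.

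The subunits differed widely in level. RPKM is the number of reads per length of gene model, scaled to library depth, so it allows genes to be compared per length. Over the 48 libraries, Grik5 had a median of 62.2 RPKM and Gria1 49.2 RPKM. Gria2 followed at 11.2 RPKM, Gria4 at 10.2 RPKM and Gria3 at 8.37 RPKM, and the other kainate subunits lay close together, with Grik3 at 5.15, Grik4 at 4.74, Grik1 at 4.69 and Grik2 at 4.43 RPKM. All 9 passed the filter on low values (a mean of at least 0.5 RPKM). The RPKM values came out as whole numbers of reads in all 48 libraries, within 0.03 reads, at the shortest gene model length that allowed it. On that scale Grik1 had 330 to 1302 reads per library, the fewest of the 9, and Gria1 5141 to 20804, out of 28300000 to 55300000 reads per library. The gene model of Gria1 was 6043 bases long and that of Grik3 8973 bases, both equal to the joined exons in GENCODE M21. That of Gria2 had 10498 bases, against 15548 bases of joined exons, so not all of those exons were counted for it.

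The order was not the same in every series. Grik5 had the highest median in 6 of the 8 series. In late quiet free-moving mice Gria1 stood above it, at 70.6 RPKM against 45.0 RPKM for Grik5, with no overlap between the 6 libraries of each. In late quiet unloaded mice Gria1 had a median of 59.1 RPKM and Grik5 57.2 RPKM, and their ranges overlapped. Below Gria2, neighbours in the order overlapped in most series, and the low kainate subunits Grik1, Grik2 and Grik4 changed places from series to series.

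**Figure D1:**
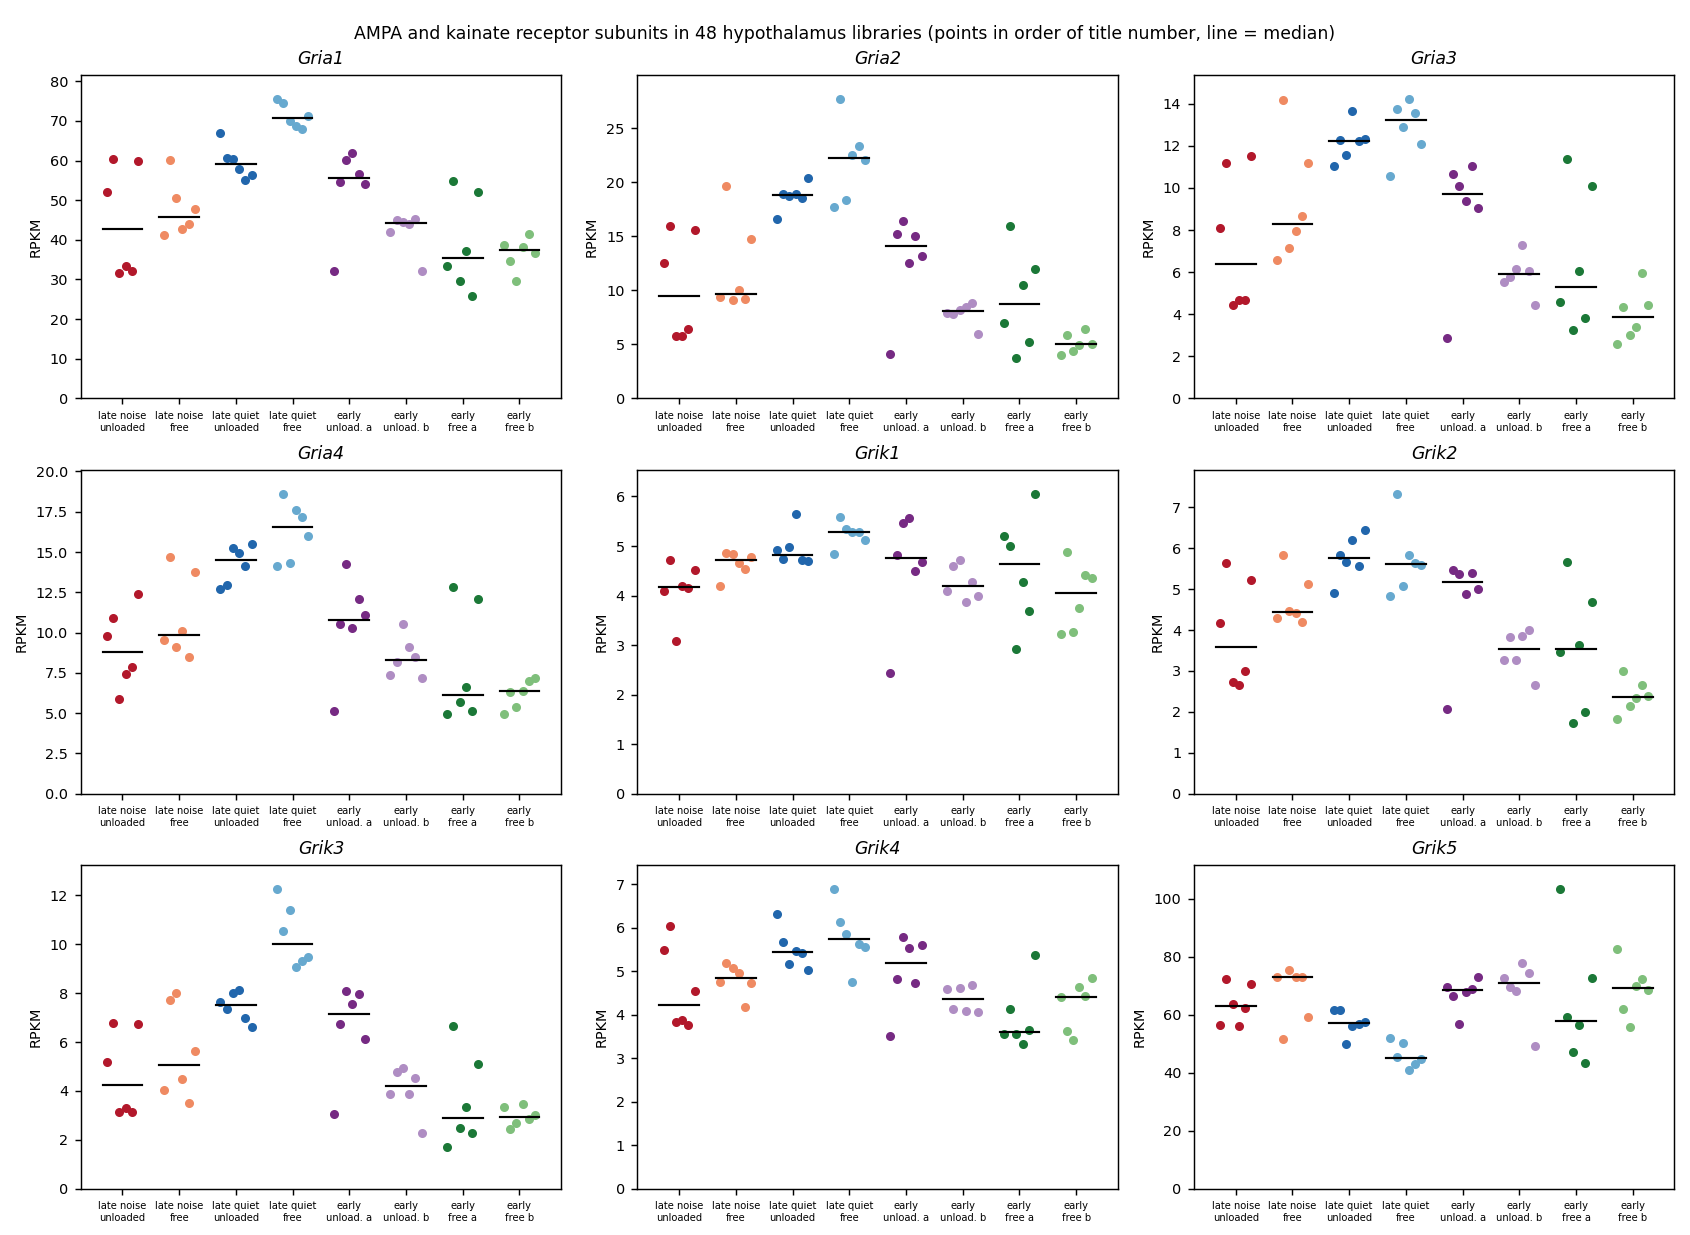
RPKM of each subunit on a linear axis from 0 in the 48 libraries, 1 point per library in order of title number within each series, with a line at the median of 6. Gria1 to Gria4, Grik2 and Grik3 are highest in the late quiet series, Grik1 and Grik4 differ less between series, and Grik5 has its lowest median, 45.0 RPKM, in late quiet free-moving mice.

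The libraries also differed in the share of RPKM taken by the mitochondrially encoded genes, and the subunits moved with it. This share ran from 8.9% to 13.5% in late quiet free-moving mice and from 12.7% to 16.6% in late quiet unloaded mice, but from 18.7% to 62.4% in early free-moving series a. Across the 48 libraries Gria1, as log2(RPKM + 0.5), was lower at a higher share, taken as its logit (Pearson's r of −0.96 and Spearman's rho of −0.97; permutation p = 1.0e-05 for each, the smallest that 100000 resamples can give; adjusted p over 9 subunits 1.1e-05). The coefficient for Gria1 was −0.95 without the 2 libraries with the most extreme shares, and within each of the 8 series it was negative, from −0.99 to −0.35. Grik3 had r = −0.94 and rho = −0.93, Gria2 −0.90 and −0.87, and Grik1 −0.68 and −0.75, each with the same permutation p of 1.0e-05. Grik5 had r = 0.21 (permutation p = 0.15) and rho = 0.21 (permutation p = 0.16). Within series the coefficient for Grik5 ran from −0.92 to 0.86 and was negative in 6 of 8. For Gria2, Gria3, Gria4 and Grik2 the sign within a series was negative in 5 of 8 series. RPKM of a subunit and this share are parts of the same total. The permutations shuffled all 48 libraries without regard to series, so their p-values do not allow for the differences in share between series. The part of this share in the differences below was not tested, and counts of calls under a covariate for it are given with the comparisons.

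**Figure D2:**
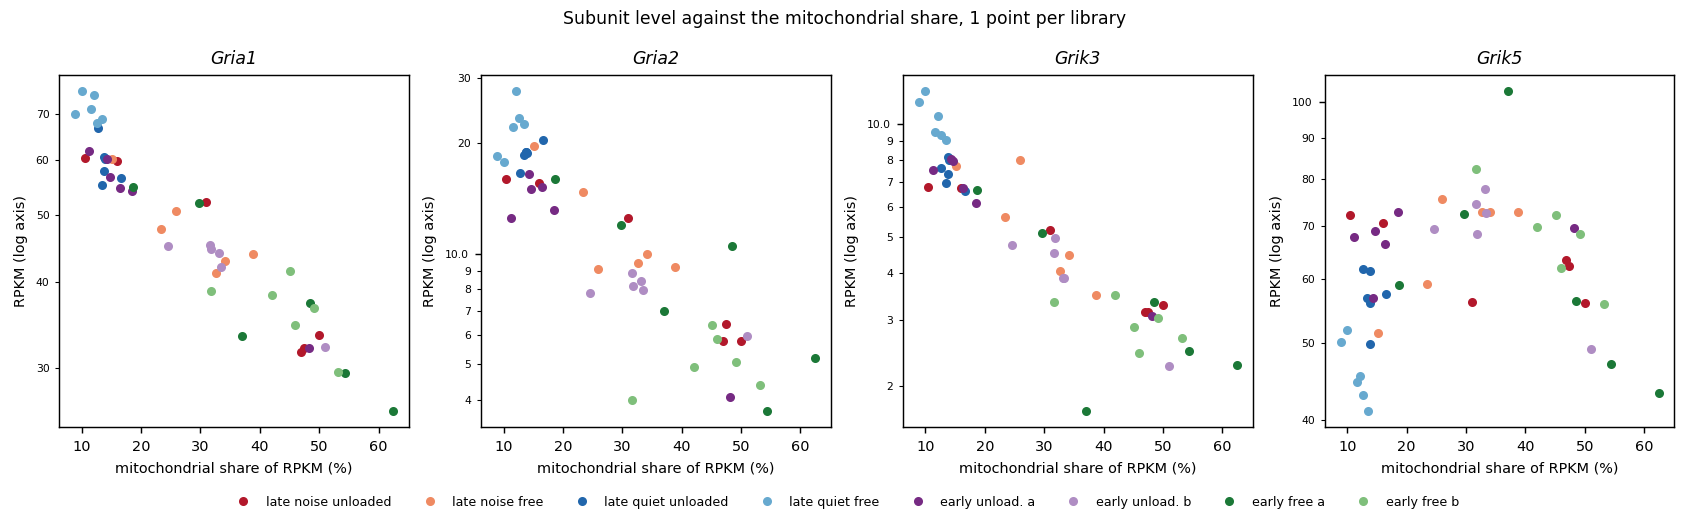
RPKM on a log axis of Gria1, Gria2, Grik3 and Grik5 against the mitochondrial share of RPKM in percent, 1 point per library, coloured by series. Gria1, Gria2 and Grik3 lie lower at larger shares (r −0.96, −0.90 and −0.94), while Grik5 shows no such slope over all libraries (r 0.21).

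Among the comparisons made, the largest subunit differences were between periods. In quiet free-moving mice, 8 of the 9 subunits were higher in late than in early mice and Grik5 was lower, with limma on log2(RPKM + 0.5) at an adjusted p below 0.05. Of all 13685 genes tested, 60.5% were called higher and 18.0% lower, and the median gene was 0.43 higher on the log2 scale, so a call alone does not set a subunit apart. Quantile normalization brings that median to 0.03 and the share of higher genes among those called to 52.5%, against 77.1% on the values as deposited. Under it Grik1 and Grik4 turned to −0.26 and −0.09, while the 4 AMPA subunits, Grik2 and Grik3 were still called higher. Late and early mice differ in age and period together, which cannot be told apart.

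Gria2, the subunit that sets calcium permeability, had 17.7, 22.3 and 27.8 RPKM (lowest, median and highest) in the 6 late free-moving libraries, against 3.73, 5.54 and 15.9 RPKM in the 12 early ones. No late library overlapped an early one. The difference was 1.69 ± 0.20 on the log2 scale (SE, limma adjusted p = 1.3e-09), above that of 97.9% of the genes tested. Grik3, a kainate subunit that can also sit before the synapse, had 9.07, 10.0 and 12.3 RPKM in late mice, against 1.71, 2.95 and 6.67 RPKM in early mice. These ranges did not overlap either, and the difference was 1.58 ± 0.19 (adjusted p = 9.1e-10). Gria4, whose channels open and close fast, had 14.1, 16.6 and 18.6 RPKM in late mice, against 4.94, 6.35 and 12.8 RPKM in early mice (1.21 ± 0.15, adjusted p = 1.3e-09). Gria1, a subunit whose insertion at synapses is regulated by activity, had 68.0, 70.6 and 75.7 RPKM in late mice, against 25.9, 36.9 and 54.8 RPKM in early mice (0.94 ± 0.13, adjusted p = 3.2e-08). For both of these genes every late library was above every early one. Gria1, Gria2, Gria4 and Grik3 were the 4 subunits without overlap, as were 29.6% of the genes tested.

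Gria3, which is X-linked, averaged 12.8 ± 1.35 RPKM in late mice and 5.24 ± 2.79 RPKM in early mice (SD, n = 6 and 12) (1.34 ± 0.19 on the log2 scale, adjusted p = 5e-08). The highest early library, at 11.4 RPKM, reached the range of the late ones. Grik2, a principal subunit of kainate receptors in the brain, averaged 5.72 ± 0.87 RPKM in late mice and 2.96 ± 1.22 RPKM in early mice (0.91 ± 0.14 on the log2 scale). Grik4 was 0.47 ± 0.10 higher and Grik1 0.30 ± 0.11 higher, both close to the median gene. Grik5, the partner subunit with the highest level, had 41.05, 45.0 and 51.9 RPKM in late mice, against 43.3, 65.2 and 103.3 RPKM in early mice. It was lower in late mice at all 6 title numbers, by −0.48 ± 0.11 on the log2 scale (adjusted p = 0.00012), and 10.7% of genes had a lower value. With a covariate for the mitochondrial share 3 subunits were called higher and 1 lower, among 2175 genes called higher and 4023 lower.

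Promoter sequences from RefSeq (GRCm38.p6) were matched for 6 of the 9 subunits, Gria2, Gria4, Grik2, Grik3, Grik4 and Grik5. The 250 bases before the start are shown for Gria2 and Grik3, the subunits with the largest rise in late free-moving mice, and for Grik5, the only one that fell there. Capitals mark the GC box GGGCGG, a motif that the factor Sp1 can bind, on either strand (CCGCCC where it lies on the other strand). The windows are chr3:80802836-80803085 on the minus strand for Gria2, chr4:125490446-125490695 on the plus strand for Grik3 and chr7:25072370-25072619 on the minus strand for Grik5, each printed 5′ to 3′ along its gene.
Gria2: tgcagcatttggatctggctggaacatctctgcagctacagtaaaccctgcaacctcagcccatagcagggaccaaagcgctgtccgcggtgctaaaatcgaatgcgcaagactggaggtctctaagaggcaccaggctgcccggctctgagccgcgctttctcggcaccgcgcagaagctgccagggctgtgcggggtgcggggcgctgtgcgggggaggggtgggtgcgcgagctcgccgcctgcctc
Grik3: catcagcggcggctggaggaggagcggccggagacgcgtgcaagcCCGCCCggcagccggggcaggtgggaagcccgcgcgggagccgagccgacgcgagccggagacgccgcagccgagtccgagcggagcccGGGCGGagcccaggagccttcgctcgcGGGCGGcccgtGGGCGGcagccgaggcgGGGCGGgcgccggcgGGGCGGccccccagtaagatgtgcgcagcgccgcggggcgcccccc
Grik5: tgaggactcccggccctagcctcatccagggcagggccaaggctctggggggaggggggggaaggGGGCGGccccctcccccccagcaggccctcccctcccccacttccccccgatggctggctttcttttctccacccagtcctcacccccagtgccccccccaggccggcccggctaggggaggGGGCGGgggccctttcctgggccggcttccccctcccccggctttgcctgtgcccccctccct

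The Grik3 window held 6 GC boxes and was 82.0% G and C with 42 CG pairs. The Grik5 window held 2 and was 75.2% G and C with 8 CG pairs, and the Gria2 window held none and was 64.8% G and C with 19 CG pairs. The box was found in 32.7% of the 32851 promoter windows of the same length, whose median was 52.4% G and C. A cyclic AMP response element (TGACGTCA) was found in 1.55% of all windows and a TATA box (TATAAA) in 12.4%, and neither was in the 6 windows of the subunits. The windows of Gria2 and Grik3 thus differed in their GC boxes. Whether these motifs have a part in the differences between periods was not tested. The longest coding transcripts also differed in composition, with 36.8% G and C in Gria2, 37.9% in Grik2, 54.2% in Grik3 and 62.3% in Grik5. When a trend of G and C content and length was removed from each library, a setting chosen after the data had been seen, 4 subunits were called higher (Gria2, Gria3, Gria4 and Grik3) and 3 lower (Grik1, Grik4 and Grik5). In that setting, for late against early free-moving mice, 4831 of 13535 genes were called higher and 4597 lower. These counts of subunits therefore do not set them apart.

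In quiet unloaded mice the same period comparison called 6 subunits higher in late than in early mice and 0 lower, where 38.8% of genes were called higher and 8.53% lower and the median gene was 0.21 higher. Under quantile normalization higher genes were 52.5% of those called, against 82.0% as deposited, and Grik3 no longer passed (0.26) while Grik5 was called lower (−0.32). Gria2 had 16.6, 18.8 and 20.4 RPKM in late unloaded mice, against 4.07, 8.66 and 16.45 RPKM in the 12 early unloaded libraries. Its ranges did not overlap, as for 3.75% of genes, and the difference was 0.92 ± 0.20 (adjusted p = 0.00095). Gria3 was 0.77 ± 0.19 higher, Gria4 0.60 ± 0.15, Grik3 0.53 ± 0.19, Grik2 0.49 ± 0.14 and Gria1 0.34 ± 0.13. Grik5 was at −0.24 ± 0.11 and did not pass (adjusted p = 0.069). Against early unloaded series a alone 0 subunits were called higher, and against series b alone 7 were. The shares of all genes called against each series alone are not given, so these counts do not set the subunits apart. With the covariate for the mitochondrial share 1 was called higher and 1 lower, among 844 genes called higher and 1502 lower, and Gria1 turned to −0.01.

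The partner genes of the receptors were counted from lists chosen with earlier results of these data known. In free-moving mice 11 of 13 AMPA auxiliary subunits were higher in late than in early mice and 0 lower, with a median of 0.94 against 0.43 for all genes. Shisa6 was 1.26 higher and Cacng2, which encodes stargazin, a protein that carries AMPA receptors to the synapse, 1.85 higher (adjusted p = 5.4e-12 and 5e-12). Frrs1l, which is needed for AMPA receptor assembly, was 1.67 higher, while Cpt1c, also a regulator of AMPA receptors, was lower, at −0.86. All 4 kainate partners were higher, among them Neto1 and Neto2, the auxiliary subunits of kainate receptors, at 1.28 and 1.18. Both RNA-editing enzymes were higher, Adarb1 by 1.61 and Adar by 1.95. Of 9 scaffold and trafficking genes 8 were higher and 1, Pick1, lower, and all 3 pentraxins, proteins that cluster AMPA receptors, were higher. Of the 6 tested NMDA receptor subunits 4 were higher, led by Grin2b at 2.30. In this comparison of free-moving mice 60.5% of all genes were called higher and 18.0% lower. The count of NMDA subunits is near that share of higher genes. In unloaded mice 7 of 13 auxiliary subunits, 3 of 4 kainate partners, both editing enzymes, 5 of 9 scaffold genes, all 3 pentraxins and 3 of 6 NMDA subunits were called higher, where 38.8% of all genes were.

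Other cell type markers moved with the same comparison, where 60.5% of all genes were called higher and 18.0% lower in free-moving mice. In free-moving mice 5 of 6 neuron markers were higher in late than in early mice, with a summed level of 1075 to 1381 RPKM, against 694.7 to 1105 RPKM in early series a and 679.4 to 872.2 RPKM in early series b. All 3 markers of GABA neurons and all 4 thalamus markers were also higher (medians 1.26 and 1.11), and all 13 mitochondrially encoded genes were lower (median −2.45). Of 9 hypothalamus markers 3 were higher and 4 lower, and none was at 0 in all libraries of any series. Avp and Oxt, the genes of vasopressin and oxytocin, were among the 4 lower ones at −2.16 and −1.67, while the 3 higher ones went the other way. The summed hypothalamus markers had 1547 to 2572 RPKM in late mice. Early series a had 3641 to 11350 RPKM and early series b 5457 to 9075 RPKM. This is a plain sum of RPKM, in which the most abundant genes weigh most, so it does not stand for the list as a whole. The part of tissue composition in the subunit differences was not tested.

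**Figure D3:**
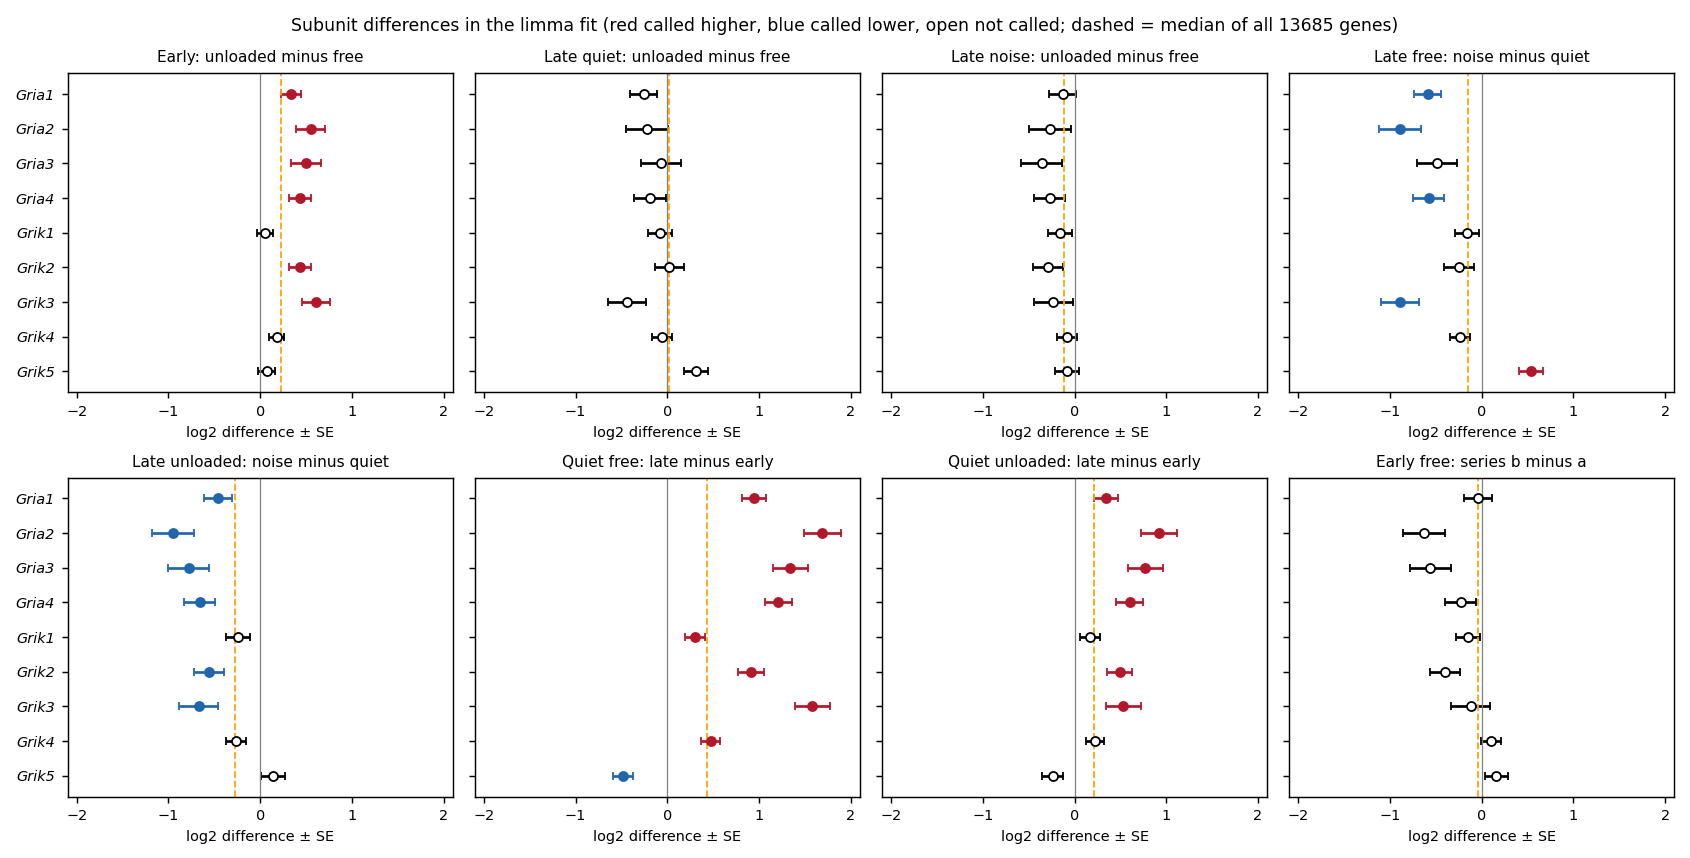
Log2 difference with its SE for each subunit in 8 comparisons of the limma fit, with the tested condition named first in each title; the dashed line is the median of all genes tested. AMPA subunits, Grik2 and Grik3 lie right of that line in both period panels and left of it in the noise panel of unloaded mice, while Grik5 lies on the other side; Grik1 and Grik4 turn sign with quantile normalization in the period panel of free-moving mice.

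The 85 dBA of noise came with 0.9 atm in every such mouse, and this pair of conditions was compared with quiet in late mice only. Each late condition is a single series, so condition and series cannot be told apart. In free-moving mice 4 subunits were lower in noise than in quiet (Gria1, Gria2, Gria4 and Grik3) and Grik5 was higher, where 36.4% of genes were called lower and 21.2% higher and the median gene was at −0.15. Grik3 had 3.50, 5.06 and 8.01 RPKM in noise, against 9.07, 10.0 and 12.3 RPKM in quiet. The 6 libraries of noise all lay below the 6 of quiet, and the difference was −0.89 ± 0.21 (adjusted p = 0.0006). Gria1 had 41.2, 45.8 and 60.2 RPKM in noise, against 68.0, 70.6 and 75.7 RPKM in quiet. It did not overlap either (−0.59 ± 0.15, adjusted p = 0.0012), and these 2 of 9 subunits stand beside 19.8% of genes that were lower without overlap. Gria2 had 9.08, 9.71 and 19.7 RPKM in noise, against 17.7, 22.3 and 27.8 RPKM in quiet. Only the library of title number 5 in noise reached the range of the quiet ones, and the difference was −0.89 ± 0.23 (adjusted p = 0.0013). Gria4 differed by −0.58 ± 0.17 (adjusted p = 0.0035), and Gria3 by −0.49 ± 0.22, which did not pass (adjusted p = 0.054).

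Grik5 ran the other way. It had 51.5, 72.8 and 75.5 RPKM in noise, against 41.05, 45.0 and 51.9 RPKM in quiet, and was higher at all 6 title numbers by 0.54 ± 0.13 (adjusted p = 0.00045). Grik1, Grik2 and Grik4 did not pass, at −0.16, −0.25 and −0.24. With quantile normalization Gria1, Gria2, Gria4 and Grik3 were still called lower and Grik5 higher, while higher genes made up 47.7% of all those called, against 36.8% as deposited. With the covariate for the mitochondrial share 0 were called lower, while Grik5 was still called higher (0.73, limma adjusted p = 1.9e-05), among 5180 genes called higher and 1538 lower. With mitochondrial genes left out 8 were called lower, where 6629 of 13672 genes were called lower and 2586 higher.

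In unloaded mice 6 subunits were lower in noise than in quiet (the 4 AMPA subunits, Grik2 and Grik3) and 0 were higher, where 45.6% of genes were called lower and 6.75% higher and the median gene was at −0.28. Gria2 had 5.79, 9.49 and 16.0 RPKM in noise, against 16.6, 18.8 and 20.4 RPKM in quiet, without overlap (−0.95 ± 0.23, adjusted p = 0.0032). Only 1.0% of genes had a lower value. The noise libraries fell into a high and a low set. Gria2 was at 5.80, 5.79 and 6.45 RPKM at numbers 9, 13 and 17, where the mitochondrial share was 46.9%, 50.0% and 47.4%. At numbers 1, 5 and 21 it was at 12.5, 16.0 and 15.6 RPKM, with shares of 31.0%, 10.5% and 16.0%. Gria4 was the other subunit without overlap, with 5.86, 8.82 and 12.4 RPKM in noise, against 12.7, 14.5 and 15.5 RPKM in quiet (−0.66 ± 0.17, adjusted p = 0.0036); 11.4% of genes were lower without overlap. Gria3 differed by −0.78 ± 0.22, Grik3 by −0.67 ± 0.21, Grik2 by −0.56 ± 0.16 and Gria1 by −0.46 ± 0.15. Grik5 was at 0.14 ± 0.13 (adjusted p = 0.33). Quantile normalization kept all 6 calls and added Grik5 as higher (0.32), while higher genes made up 46.1% of all those called, against 12.9% as deposited. Without title number 13 only 2 subunits were called lower. The share of all genes called without it is not given, so this count does not set the subunits apart. With the covariate for the mitochondrial share 0 subunits were called lower, with Gria1 at 0.03. With that covariate 0 of the 13685 genes were called in either direction.

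The partner lists were counted in noise against quiet beside all genes, of which 36.4% were called lower in free-moving mice and 45.6% in unloaded mice, so that several counts lie near those shares. In free-moving mice 5 of 13 AMPA auxiliary subunits were lower and 1, Prrt1, was higher. Shisa9 and Cacng2 were at −1.21 and −1.04, and Frrs1l at −1.15, with Cpt1c higher at 0.79. Of the kainate partners 3 of 4 were lower, both editing enzymes were lower (Adarb1 −1.24, Adar −1.07), 5 of 9 scaffold genes were lower with Pick1 higher at 0.28, and all 3 pentraxins were lower. The NMDA subunits Grin2a, Grin2b and Grin3a, 3 of 6 tested, were lower. In unloaded mice 8 of 13 auxiliary subunits, all 4 kainate partners, both editing enzymes, 7 of 9 scaffold genes, all 3 pentraxins and 3 of 6 NMDA subunits were lower. Of 9 hypothalamus markers 5 were higher and 1 lower in free-moving mice (median 0.87), and 3 higher and 1 lower in unloaded mice (median −0.14). Avp and Oxt were among the higher ones in both (1.86 and 1.40 in free-moving, 1.68 and 1.10 in unloaded mice). As 1 marker was lower in each, they do not stand for the list as a whole. Neuron markers were lower in 5 of 6 cases in each kind of mouse, thalamus markers in 3 of 4 (free-moving) and 4 of 4 (unloaded), and all 13 mitochondrially encoded genes were higher in both. The part of these markers in the subunit differences was not tested.

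Early unloading compared both unloaded series with both free-moving series in 2-month-old quiet mice. Unloaded mice had 6 subunits called higher (the 4 AMPA subunits, Grik2 and Grik3) and 0 lower, where 50.9% of genes were called higher, 1.88% lower, and the median gene was 0.23 higher. Grik3 had 2.27, 4.86 and 8.07 RPKM in the 12 unloaded libraries, against 1.71, 2.95 and 6.67 RPKM in the 12 free-moving ones (0.61 ± 0.15, adjusted p = 0.0045). Gria2 had 4.07, 8.66 and 16.45 RPKM in unloaded mice, against 3.73, 5.54 and 15.9 RPKM in free-moving mice (0.55 ± 0.16, adjusted p = 0.0087). The groups overlapped over nearly their whole range for both. Gria3 was 0.50 ± 0.16 higher, Gria4 0.43 ± 0.12, Grik2 0.43 ± 0.12 and Gria1 0.34 ± 0.11, while Grik4 was at 0.18, Grik5 at 0.07 and Grik1 at 0.05. Quantile normalization left 2 higher (Grik2 and Grik3) and 1 lower (Grik1 at −0.20), with higher genes at 54.6% of all those called, against 96.4% as deposited. Unloaded series a gave 5 calls against free-moving series a and 6 against series b, and unloaded series b gave 0 against either. Without title number 9 or 17 the count was 0. The shares of all genes called for single series or without a number are not given, so these counts do not set the subunits apart. With the covariate the count was also 0, as 1 gene of all 13685 was called.

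Series with the same labels were compared with each other to show how far nominally equal series lie apart. Gria2 had 5.99, 8.07 and 8.87 RPKM in unloaded series b, against 4.07, 14.1 and 16.45 RPKM in unloaded series a. Its difference of −0.56 did not pass (adjusted p = 0.12), and 0 of 9 subunits were called by limma (5 at an unadjusted p below 0.05, as were 4047 of 13685 genes), where 0.431% of genes were called higher and 0.402% lower. In series a the library of title number 1 held the low value. It had a mitochondrial share of 48.2%, against 11.2% to 18.5% in the other 5. Without it, an alternative chosen after the data had been seen, 7 subunits were called lower in series b, with Gria2 at −0.82 (adjusted p = 0.0065) and Grik3 at −0.79 (adjusted p = 0.0072). The share of all genes called without that library is not given, so this count does not set the subunits apart. Between the free-moving series 0 subunits were called by limma (3 at an unadjusted p below 0.05, as were 2099 of 13685 genes), where 0.0512% of genes were called higher and 0.205% lower. Gria2 had 4.01, 4.99 and 6.39 RPKM in series b, against 3.73, 8.72 and 15.9 RPKM in series a (−0.63 ± 0.23, adjusted p = 0.17). With the covariate 2 subunits were called lower between the free-moving series, Gria2 (−0.53) and Gria3 (−0.47), where 328 genes were called higher and 454 lower. Between the unloaded series 0 subunits were called with it, as 0 of all 13685 genes were called in either direction.

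Among the partners, 11 of 13 AMPA auxiliary subunits were higher in early unloaded than in early free-moving mice, with Cacng2 at 0.78, as were both editing enzymes, all 3 pentraxins, 8 of 9 scaffold genes, 2 of 4 kainate partners, 2 of 4 biogenesis genes and 5 of 6 NMDA subunits. Of all genes 50.9% were called higher, and the counts of kainate partners and biogenesis genes are near that share. Mitochondrially encoded genes were lower in 12 of 13 cases (median −0.94), and neuron markers were higher in 4 of 6.

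In late quiet mice unloading gave 0 calls among the 9 subunits by limma (Grik3 and Grik5, 2 of 9, had an unadjusted p below 0.05, as did 3805 of 13685 genes), where 9.38% of genes were called higher and 3.38% lower. Gria1 had 55.2, 59.1 and 66.9 RPKM in unloaded mice, against 68.0, 70.6 and 75.7 RPKM in free-moving mice. Grik3 had 6.61, 7.50 and 8.15 RPKM in unloaded mice, against 9.07, 10.0 and 12.3 RPKM in free-moving mice. Neither gene overlapped between the groups, as was so for 24.6% of genes in either direction, yet with the spread shared by all 8 series neither passed (Gria1 −0.26 ± 0.15, adjusted p = 0.26; Grik3 −0.44 ± 0.21, adjusted p = 0.17). Fitted on these 2 series alone, whose libraries lie close together, 4 subunits were called lower (Gria1, Gria2, Gria4 and Grik3) and Grik5 higher. The share of all genes called in that fit is not given, so these calls do not set the subunits apart. Quantile normalization, under which higher genes were 49.5% of those called against 73.5% as deposited, called Gria1 (−0.34, adjusted p = 0.0061) and Grik3 (−0.44, adjusted p = 0.016) lower and Grik5 (0.28, adjusted p = 0.026) higher. Grik5 averaged 57.3 ± 4.34 RPKM in unloaded mice and 46.0 ± 4.19 RPKM in free-moving mice (SD, n = 6 each; 0.31 ± 0.13, limma adjusted p = 0.091). With the covariate Grik5 was the 1 subunit called, higher at 0.36 (limma adjusted p = 0.016), among 3084 genes called higher and 971 lower. Of the partners, Shisa6 was lower at −0.40 and Frrs1l at −0.61, and Prrt1 (0.39) and Cpt1c (0.46) were higher; 0 kainate partners, editing enzymes, scaffold genes, pentraxins or NMDA subunits were called.

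In late mice kept in noise, unloading gave 0 calls among the subunits and 2 among all genes (0.0146% higher, 0 lower; 855 genes but 0 subunits had an unadjusted p below 0.05). All 9 estimates were below 0, from −0.36 for Gria3 to −0.08 for Grik4 and Grik5, though Grik4 and Grik5 turned to 0.05 and 0.01 with quantile normalization. The median gene was at −0.11. Gria2 had 5.79, 9.49 and 16.0 RPKM in unloaded mice, against 9.08, 9.71 and 19.7 RPKM in free-moving mice (−0.27 ± 0.23, adjusted p = 0.79). No gene of the partner lists was called. With the covariate 0 subunits were called, where 3 of all genes were called higher and 0 lower.

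Differences between these differences were tested directly. The effect of unloading was lower in late than in early quiet mice for Gria1 (−0.60 ± 0.19, adjusted p = 0.015), Gria2 (−0.76 ± 0.28, adjusted p = 0.037), Gria4 (−0.62 ± 0.21, adjusted p = 0.021) and Grik3 (−1.05 ± 0.26, adjusted p = 0.0045), where 25.6% of genes were called lower and 7.98% higher and the median gene was at −0.22. With quantile normalization these 4 were still called lower and Grik5 was called higher (0.37), while higher genes were 47.8% of those called, against 23.8% as deposited. For Grik3 unloading gave −0.44 in late mice and 0.61 in early mice, and 1.3% of genes had a lower value of the interaction. With early series b alone 0 were called, without title number 9, 13 or 17 only 1. The shares of all genes called in those fits are not given, so these counts do not set the subunits apart. With the covariate 0 were called, where 1374 genes were called higher and 397 lower. The effect of unloading did not pass a test of a difference between noise and quiet for any subunit, where 0.482% of genes were called higher and 3.90% lower. Grik5 was the 1 subunit with an unadjusted p below 0.05 in that limma test (−0.39 ± 0.18, adjusted p = 0.2), as were 2607 of 13685 genes. With the covariate 0 subunits were called in it, where 261 genes were called higher and 2286 lower.

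By arithmetic, ratios between subunits of 1 library do not depend on how many reads other genes took, but they can still go with the mitochondrial share. They are given as values with no test. Summed kainate over summed AMPA RPKM was 0.536, 0.572 and 0.684 (lowest, median and highest) in late quiet free-moving mice, against 0.848, 1.46 and 2.35 in early free-moving mice. It was 0.691, 1.28 and 1.35 in late noise free-moving mice, against the same quiet values. Neither pair overlapped. In unloaded mice it was 0.911, 1.17 and 1.60 in noise, against 0.696, 0.784 and 0.812 in quiet, and unloaded quiet mice in turn lay above free-moving quiet mice without overlap. With geometric means in place of sums, the ranges overlapped in all 4 of these pairs. Grik5 made up most of the kainate sum. Without it the ranges also overlapped in all 4, and the ratio had medians of 0.216 in late quiet free-moving mice and 0.262 in early free-moving mice. In late noise unloaded mice, numbers 9, 13 and 17 had ratios of sums of 1.598, 1.361 and 1.499. Their mitochondrial shares were 46.9%, 50.0% and 47.4%. Numbers 1, 5 and 21 had 0.9111, 0.9679 and 0.9222, at shares of 31.0%, 10.5% and 16.0%. In early free-moving series b the highest ratio, 1.895, was instead at the lowest share, 31.7%. The part of this share in the ratios was not tested.

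Within the kainate family Grik5 made up 60.6% to 64.4% of RPKM in late quiet free-moving mice, against 73.3% to 88.1% in early free-moving mice, and in late noise free-moving mice it made up 68.6% to 81.6%, against those same late quiet values. The share of Grik3 was 13.5%, 13.9% and 15.2% in late quiet free-moving mice, against 1.46%, 4.06% and 8.29% in early free-moving mice. In late quiet unloaded mice the share of Grik3 was 8.23% to 10.9%, against the free-moving values, with no overlap. Within the AMPA family Gria1 held most of the RPKM, with a median of 57.3% in late quiet free-moving mice and 67.9% in early free-moving mice. The share of Gria2 was 15.0%, 18.2% and 20.6% in late quiet free-moving mice, against 7.98%, 10.99% and 17.3% in early free-moving mice, and these overlapped. Its median was 13.9% in late noise unloaded mice, against 18.0% in late quiet unloaded mice.

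**Figure D4:**
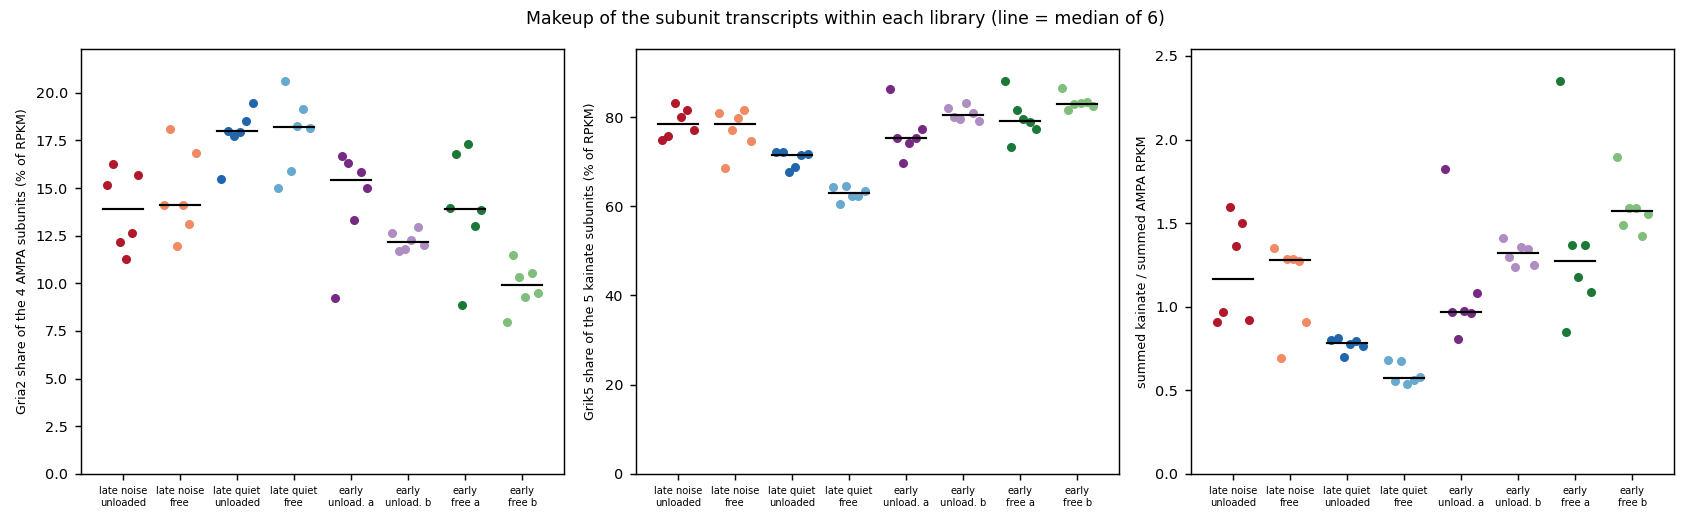
Share of Gria2 in the AMPA subunits, share of Grik5 in the kainate subunits (both in percent of RPKM) and the ratio of summed kainate to summed AMPA RPKM, 1 point per library with a line at the median of 6. The late quiet free-moving libraries have the lowest ratios, 0.536 to 0.684, and the lowest shares of Grik5, 60.6% to 64.4%.

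Across the 48 libraries the AMPA subunits and Grik2 rose and fell together. On log2(RPKM + 0.5), Pearson's r was 0.97 between Gria2 and Gria3, 0.96 between Gria2 and Grik2, and 0.95 between Gria1 and Grik3, as a description of libraries that share series and mitochondrial share. As deposited, Grik5 was negative with all 8 others, from −0.43 with Gria4 to −0.12 with Grik1, though not with all of them after quantile normalization. With quantile normalization Gria2 and Gria3 kept r = 0.94, Grik5 was at −0.84 with Gria4 but turned positive with Grik1 (0.41) and Grik4 (0.35), and Grik1 was at −0.44 with Gria1, against 0.72 on the values as deposited. The genes with the pattern most like a subunit, on quantile-normalized values over 48 libraries, were Astn1 for Gria1 (r = 0.974), Dzip3 for Gria2 (0.966), Zdhhc17 for Gria3 (0.943), Bend6 for Gria4 (0.935), Cmc4 for Grik1 (0.718), Zranb2 for Grik2 (0.888), Adar for Grik3 (0.946), Acaca for Grik4 (0.665) and Znhit2 for Grik5 (0.949). The next in line were Timp2 for Gria1 (0.970), Braf for Gria2 (0.965), Epb41l3 for Gria4 (0.921), Megf11 for Grik1 (0.715), Pcmtd2 for Grik2 (0.884), Cadm3 for Grik3 (0.945), Shisal2a for Grik4 (0.595) and Fam173a for Grik5 (0.938).

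If the title numbers are hours of the day, which is an assumption, a curve with a period of 24 gave 0 calls among the 9 subunits by limma (0 also at an unadjusted p below 0.05), where 1.76% of genes were called. Fitted amplitudes ran from 0.01 for Gria4 and Grik1 to 0.13 for Grik3 on the log2 scale, and the smallest adjusted p was 0.61, for Grik5.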

How the data were processed

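Hypothalamus RNA was extracted with Trizol and sequenced from pools of 3 mice, per the labels' protocols. The deposited table holds RPKM values per gene for 48 libraries, and CASAVA 1.8 and HISAT are named in the submitters' processing notes. No genome build is named, and the annotation is likewise not given in the sources used here. From the RPKM steps, libraries held 28300000 to 55300000 reads (median 38100000), so counting error is small for all 9 subunits. Groups come from the labels, and 0 sample columns were left out as unmapped. Values were tested as log2(RPKM + 0.5) in limma 3.58.1 (R 4.3.3) over 13685 genes with a mean of at least 0.5 RPKM, in 1 fit of 48 libraries with terms for series and title number, two-sided, with Benjamini-Hochberg adjustment over all genes and a call at an adjusted p below 0.05. Differences are log2 with SE, and the pseudocount understates those of low genes. A pool with its own title number is 1 replicate, so p-values measure the spread between such pools and not that between series. Each late condition is a single series, so in comparisons with late mice condition and series cannot be told apart. The term for title number is a block that the fit includes because each series has 1 library per number. Deviations of libraries with the same number had a median correlation of 0.08 over 168 pairs (lowest −0.53). Pairs with different numbers had a median of −0.017. This small difference does not settle whether the numbers pair the libraries. Mitochondrial share is the summed RPKM of mt- genes over that of all genes. Coordinates, exon lengths and composition come from GENCODE M21 (GRCm38). All 9 subunits are named in every comparison, with up to 3 called genes per partner list by smallest p and the 2 most alike genes per subunit, of which 1 is not reported here. Further partner genes were named after their values were seen. The members and lists were chosen with earlier results of these data known. Alternatives were another pseudocount (0.1), no filter, quantile normalization, mitochondrial genes left out, their share as a covariate, fewer series, no block, and leaving out title numbers or single libraries. Removal of a GC and length trend, and leaving out number 1 of early unloaded series a, were added after the data had been seen.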

Additional observations from a re-analysis of the deposited data

Results flagged for a closer look

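In series of 6, the gap of the lowest or highest library to the next exceeded Dixon's 95% critical value in 12 of 80 sets. Each set held the values of 1 subunit, or of the kainate to AMPA ratio, in 1 series. Chance gives about 1 in 20 for independent sets. These sets repeat the same libraries over subunits that move together, so their count cannot be compared with it. Number 1 of early unloaded series a was low for Gria1 (32.09 RPKM, next 54.15), Gria2 (4.072, next 12.51), Gria3 (2.857, next 9.042), Grik1 (2.433, next 4.487) and Grik2 (2.079, next 4.882). Its ratio of summed kainate to summed AMPA RPKM was high (1.825, next 1.079), and its mitochondrial share was 48.2%, against 11.2% to 18.5% in the other 5 libraries. Number 21 of early unloaded series b was low for Gria1 (32.11 RPKM, next 42.0), Gria2 (5.986, next 7.805) and Grik5 (49.16, next 68.3), with a mitochondrial share of 51.0%, against 24.6% to 33.4% in the others. Number 13 of the late quiet unloaded series was high for Grik1 (5.653 RPKM, next 4.988). The kainate to AMPA ratio was also high in number 1 of early free-moving series a (2.351, next 1.369) and in number 1 of early free-moving series b (1.895, next 1.589).

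The effect of unloading differed between late and early quiet mice for Gria1 (−0.60), Gria2 (−0.76), Gria4 (−0.62) and Grik3 (−1.05 on the log2 scale), by limma's test of the interaction.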

How the results depend on the processing

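The values limit what can be said of the subunits in these ways. Groups differ in mitochondrial share, several calls change with the scaling, and RPKM of different genes depends on the gene models. All counts below are of the 9 subunits. They are given without the share of all genes called in each setting, so they do not set the subunits apart. With quantile normalization early unloading gave 2 higher and 1 lower (6 and 0 as reported), late quiet unloading 1 and 2 (0 and 0), noise in unloaded mice 1 higher (0), late against early 2 lower in free-moving mice (1) and 1 lower in unloaded mice (0), the interaction with period 1 higher (0), and series of the same label 2 lower (free-moving) and 1 lower (unloaded), both 0 as reported. With mitochondrial genes left out, late quiet unloading gave 2 lower, noise in free-moving mice 8 lower (4), late against early in unloaded mice 1 lower and the interaction with period 1 higher. With the mitochondrial share as a covariate, early unloading gave 0 higher, late quiet unloading 1 higher, noise 0 lower in free-moving and 0 lower in unloaded mice (6), late against early 3 higher in free-moving mice (8) and 1 higher (6) and 1 lower in unloaded mice, the interaction with period 0 lower (4) and the free-moving series of the same label 2 lower. Fitted on only the series compared, late quiet unloading gave 1 higher and 4 lower, noise in free-moving mice 7 lower and late against early in unloaded mice 1 lower. With the GC and length trend removed, early unloading gave 2 lower, late quiet unloading 1 higher and 1 lower, noise 2 higher and 2 lower in free-moving and 1 higher and 1 lower in unloaded mice, late against early 4 higher and 3 lower in free-moving and 2 higher and 1 lower in unloaded mice, the interaction with period 1 higher and 1 lower, and the unloaded series of the same label 2 lower. In early mice, series b of the unloaded gave 0 higher against either free-moving series (0 for a, 0 for b). Late unloaded mice gave 0 higher against early series a alone, and the interaction with period gave 0 lower with early series b alone.

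Leaving out each title number in turn gave 0 to 7 higher for early unloading (0 without 9 or 17), 4 to 5 lower for noise in free-moving mice, 2 to 7 lower for noise in unloaded mice (2 without 13), 7 to 8 higher and 4 to 7 higher for late against early in free-moving and unloaded mice, 1 to 6 lower for the interaction with period and 0 to 7 lower for the unloaded series of the same label. Without the replicate block the interaction with period gave 3 lower in place of 4, and no other count moved. Some called differences turned sign. With the covariate these were Gria1 in early unloading (−0.03), noise in unloaded mice (0.03) and late against early in unloaded mice (−0.01), and Grik1 in late against early in free-moving mice (−0.14). Early unloading turned for unloaded series b set against series a of the free-moving mice, in Gria2 (−0.05) and Gria3 (−0.01). Late against early in free-moving mice turned with quantile normalization for Grik1 (−0.26) and Grik4 (−0.09), and with the trend removed for Grik1 (−0.36), Grik2 (−0.11) and Grik4 (−0.30). Late against early in unloaded mice turned with the trend removed for Gria1 (−0.05) and Grik2 (−0.04). The log2 difference of the kainate to AMPA ratio was 0.13 with geometric means for late quiet unloading (0.37 with sums), 0.43 for noise when moving freely (0.89) and −0.73 for late against early in free-moving mice (−1.27). The cause of these shifts was not tested. Over single subunits, 1412 of the alternatives' values kept direction and side of the threshold, 110 lost the call and 64 gained one. A further 93 turned sign where the reported fit had no call, and 13 turned sign where it had one.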

Other observations

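Markers of other cells were counted in the period comparison of free-moving mice, where 60.5% of all genes were called higher and 18.0% lower. In late against early mice 3 of 4 astrocyte markers were higher and 1 lower, 1 of 4 oligodendrocyte markers was higher and 1 lower, both markers of oligodendrocyte precursors were higher and all 3 microglia markers were higher. Of the markers of neighbouring tissue, 1 of 5 striatum markers was lower, 1 of 4 markers of cortex and hippocampus was higher and 1 lower, 2 of 4 anterior pituitary markers were lower, 1 of 2 glutamate neuron markers was higher, and 1 of 2 tested choroid plexus markers was higher. In noise against quiet in free-moving mice, where 21.2% of all genes were called higher and 36.4% lower, 3 of 4 astrocyte markers were lower and 1 higher, all 3 microglia markers were lower and 1 of 5 striatum markers was higher.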
